A study of Homo sapiens with 6 samples.

Results

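Notch receptors, ligands and HES/HEY targets were examined in A673/TR/shEF cells with and without knockdown of EWSR1::FLI1. The genes were the 4 receptors NOTCH1, NOTCH2, NOTCH3 and NOTCH4, the 3 ligands JAG1, JAG2 and DLL1, and the 3 targets HES1, HEY1 and HEY2, chosen by gene symbol, and all 10 were among the 26364 symbols measured. A673, an established line from an Ewing sarcoma, expresses the fusion oncogene EWSR1::FLI1. Its derivative A673/TR/shEF holds a tetracycline repressor and makes an shRNA against the chimeric mRNA in the presence of doxycycline. RNAseq was performed on 3 untreated samples (EWSR1::FLI1 high) and 3 samples given doxycycline at 1 µg/mL over 72 h (EWSR1::FLI1 low), and all 6 carried the repressor and the inducible shRNA. No sample received doxycycline without the shRNA, so an effect of the drug and an effect of the knockdown cannot be told apart. The samples of a group are called independent clones in the description of the design and are numbered as experiments in the titles, and the p-values below measure only the spread between these samples.

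Notch signalling passes between touching cells. A ligand of the Jagged or Delta-like family on one cell binds a Notch receptor on its neighbour, ADAM proteases and then gamma-secretase cut the receptor, and the released intracellular domain enters the nucleus. There it joins the DNA-binding protein RBPJ and a Mastermind coactivator on the promoters of target genes, of which the HES and HEY repressors are the best known. In mesenchymal and vascular tissue the pathway is known for its part in cell fate decisions and in the growth of vessels.

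Values are FPKM (fragments mapped to a gene, scaled to its length and to the depth of the library) as deposited, and values of single libraries are given in the order of replicates 1, 2 and 3. The reads behind them could be recovered, and from 6980361 to 16658933 reads per library lay on genes. The detection floor was taken as 3 reads and covers counting error only. Differences are EWSR1::FLI1 low minus high on the log2(FPKM + 1) scale, on which the change of a gene near 0 appears smaller than it is. They were tested with limma over the 15504 genes whose mean was at least 0.5 FPKM, and a gene was called at a Benjamini-Hochberg adjusted p under 0.01, the limit on p used in the study. FLI1, the 3′ part of the targeted mRNA, fell to 3.63 ± 0.696 FPKM with doxycycline, where untreated cells had 12.7 ± 1.43 FPKM (SD, n = 3; log2 difference -1.57, adjusted p = 0.000676, limma). EWSR1, whose intact allele is transcribed too, was at 91.5 ± 13.9 and 65.1 ± 16.0 FPKM (adjusted p = 0.159, limma). Of 8 Ewing sarcoma markers, 8 were expressed and 7 fell with the knockdown, while CD99 was at 133 and 91.8 FPKM (means, adjusted p = 0.067, limma). In EWSR1::FLI1 low replicate 1 genes of low expression read higher than elsewhere: the median of the 8984 genes with a mean under 0.5 FPKM was 0.372 FPKM there and between 0.149 and 0.238 FPKM in the other libraries.

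The promoters of the targets HES1 and HEY2 hold the core letters that RBPJ is known to bind, and these stretches are printed because RBPJ is the DNA-binding partner of the receptors. RefSeq promoters (250 bases before to 50 after the transcription start, table build GRCh38.p14) were given for 8 of the 10 genes, the exceptions being DLL1 and HEY1. The core motif TGGGAA was searched on both strands. HES1 and HEY2 held 2 matches each and none of the 6 receptor and ligand promoters held any, where 24% of the 35116 promoters in the table had at least 1 match and 3.8% had 2 or more. The stretches below were placed on GRCh37 by exact match, with distances counted from the RefSeq start, and capitals mark TGGGAA, or TTCCCA where the match is on the other strand. The stretch of HES1 lies at chr3:193853837-193853896, those of HEY2 at chr6:126070553-126070582 and chr6:126070733-126070782, all on the plus strand.
HES1, 100 to 41 bases before the start: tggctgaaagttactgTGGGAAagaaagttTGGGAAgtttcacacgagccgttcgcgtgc
HEY2, 225 to 196 bases before the start: tccgcggccgcgTTCCCAcgcctcggctgg
HEY2, from 45 bases before the start to base 5 of the transcript: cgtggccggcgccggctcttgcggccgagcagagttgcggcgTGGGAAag
In HES1 the matches began 84 and 70 bases before the start and had the same orientation. In HEY2 one began 213 bases before the start on the other strand and one spanned the start itself. The RefSeq start of HEY2 used here is not the start of its annotated gene interval (126068810 to 126082415 on GRCh37). Both HEY2 stretches lie inside that interval. None of the 8 promoters held CACGTG, the E box, on either strand (7.26% of all promoters did) or GGAAGGAA, a tandem of the GGAA unit that EWSR1::FLI1 binds in microsatellites (3.67% of all promoters did; searched on both strands). TGGGAA ends in GGAA, so a match can share letters with GGAAGGAA. A match describes these letters only and is not a binding site, and the absence of one in this window says nothing of binding elsewhere.

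**Figure D1:**
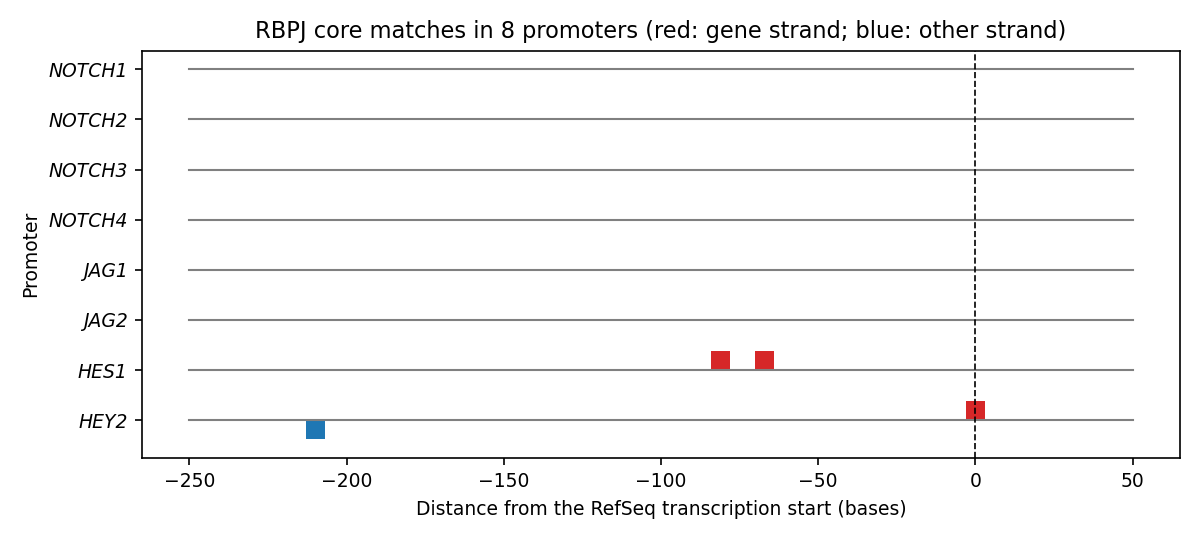
Matches to TGGGAA in the 8 promoters, plotted as distance in bases from the RefSeq transcription start (dashed line) from 250 bases before to 50 after it; red boxes lie on the gene's strand and blue boxes on the other. Matches were found in HES1 and HEY2, 2 in each, and in none of the receptor or ligand promoters.

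Among the 10 genes, HEY1 rose and JAG2 fell upon EWSR1::FLI1 knockdown, and no other passed the test. The 2 calls were not equally firm under the alternative fits described at the end. HEY1 was called in all 15, JAG2 lost its call in 6 of the 14 that tested it, and JAG1 was called in 4 of 15. JAG1 lay higher in each EWSR1::FLI1 low library but scattered widely among them, and HES1, by far the most abundant of the group, lay lower in each without passing. Of the 9 genes tested, 1 was called higher and 1 lower, where 4.51% of all tested genes were called higher and 3.37% lower. The 3 EWSR1::FLI1 low libraries lay above all EWSR1::FLI1 high libraries for 6 of the 9 and below them for 2, against 17.5% and 23.6% of all tested genes. These counts are a description, because 4 of the 9 genes (JAG2, DLL1, HEY1 and HEY2) reached the limit on mean expression through one group only.

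**Figure D2:**
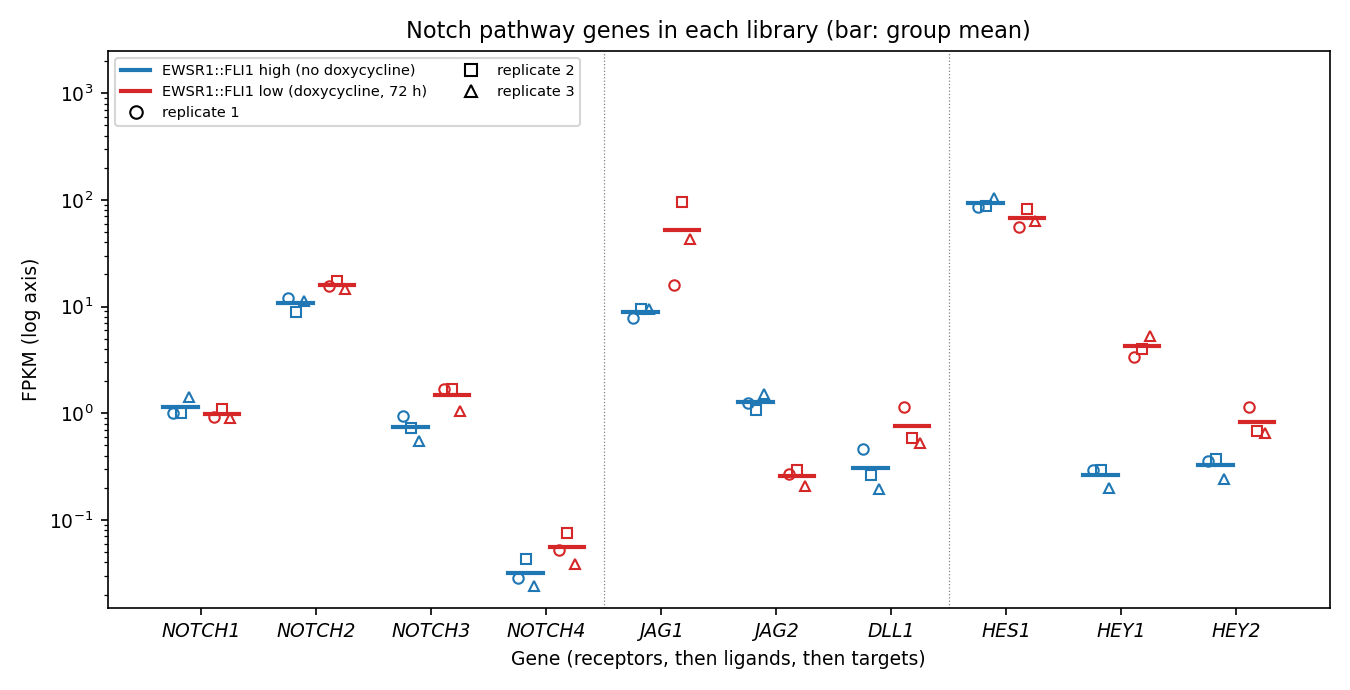
FPKM (log axis) of the 10 genes in each library, with circles, squares and triangles for replicates 1, 2 and 3 and a bar at the group mean (blue: EWSR1::FLI1 high; red: EWSR1::FLI1 low). HEY1 moves from 0.263 to 4.23 FPKM and JAG2 from 1.28 to 0.257 FPKM with no overlap, and JAG1 spreads from 16.0 to 96.3 FPKM with doxycycline. NOTCH4 sits below 0.1 FPKM throughout, but its FPKM cannot be set beside that of the other genes.

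Among the receptors, NOTCH2 (ENSG00000134250, chromosome 1, 120454176 to 120643366, minus strand, GRCh37) was the main one. Its level was 12.0, 8.92 and 11.2 FPKM without doxycycline and 15.7, 17.4 and 14.7 FPKM with it. The groups did not overlap, and the log2 difference of 0.54 (95% interval 0.13 to 0.95, adjusted p = 0.0673, limma) did not pass the test. It made up 84.7% ± 1.28 of the summed FPKM of the 4 receptors without doxycycline and 86.4% ± 1.43 with it (SD, n = 3). NOTCH2NL, a partial copy of NOTCH2, was listed at 6.51 to 7.26 and 7.93 to 10.0 FPKM, and reads of near-identical sequence may be split between these genes.

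NOTCH3 (ENSG00000074181, chromosome 19, 15269849 to 15311806, minus strand), the receptor best known from vascular smooth muscle and pericytes, was expressed at a much lower level. Without doxycycline its level was 0.933, 0.731 and 0.544 FPKM, and with doxycycline 1.70, 1.69 and 1.06 FPKM. The treated libraries all lay above the untreated ones, with a ratio of means of 2.02, and the log2 difference of 0.51 (standard error 0.18, adjusted p = 0.0815, limma) did not pass. NOTCH3 rested on 34 to 133 reads per library.

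NOTCH1 (ENSG00000148400, chromosome 9, 139388885 to 139440500, minus strand), the receptor most often mutated in T-cell leukaemia, was similar in level to NOTCH3. The untreated libraries had 1.01, 1.01 and 1.42 FPKM and the treated ones 0.932, 1.102 and 0.904 FPKM. The groups overlapped. The log2 difference was -0.11, with a 95% interval from -0.48 to 0.25 (adjusted p = 0.666, limma). The gene holds the miRNA gene MIR4673 on its own strand. As a share of the 4 receptors NOTCH1 was at 9.17% ± 1.77 without doxycycline and 5.31% ± 0.205 with it (SD, n = 3), beside 5.88% ± 1.51 and 7.98% ± 1.51 for NOTCH3. NOTCH3 was above NOTCH1 in each treated library and below it in each untreated one, although over the 3 treated libraries their FPKM ranges overlapped.

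NOTCH4 (ENSG00000204301, chromosome 6, 32162620 to 32191844, minus strand), a receptor of endothelial cells, did not reach the limit for testing. It had 13, 15 and 8 reads without doxycycline and 20, 27 and 26 reads with it, between 0.0238 and 0.0759 FPKM. The length by which its reads had been divided, inferred from FPKM and reads, was 6.43 times its longest annotated transcript, against 0.665 to 1.04 times for the other 9 genes, so its FPKM cannot be set beside theirs. With no filter on low values, its log2 difference was 0.03 (adjusted p = 0.843, limma). It overlaps GPSM3 on the same strand.

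The ligands showed opposite patterns. JAG1 (ENSG00000101384, chromosome 20, 10618332 to 10654647, minus strand), which encodes Jagged1, had 7.86, 9.45 and 9.51 FPKM in the untreated libraries. With doxycycline its level was 16.0, 96.3 and 43.2 FPKM. The groups did not overlap, and the means of 8.94 ± 0.935 and 51.8 ± 40.9 FPKM (SD, n = 3) gave a ratio of 5.80. The spread of the EWSR1::FLI1 low libraries was wide, and the log2 difference of 2.08 (standard error 0.52, 95% interval 0.91 to 3.25) had an adjusted p of 0.0237 (limma), above the limit. Replicate 1 was the lowest of the 3, and without it the log2 difference was 2.73 and passed (adjusted p = 0.000512, limma). Without EWSR1::FLI1 low replicate 2, the highest, the log2 difference was 1.47 and did not pass (adjusted p = 0.0291, limma). Leaving out any other library gave log2 differences of at most 2.12 with no call (adjusted p from 0.0642 to 0.0788, limma). On the recovered reads (limma-voom) it also passed, with a log2 difference of 2.18 and an adjusted p of 0.00694. Among tested genes, 56.9% had a lower mean than JAG1 in EWSR1::FLI1 high cells and 91% in EWSR1::FLI1 low cells.

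JAG2 (ENSG00000184916, chromosome 14, 105607319 to 105635161, minus strand), which encodes Jagged2, fell. Untreated cells had 1.26, 1.08 and 1.504 FPKM, from 50 to 77 reads, and treated cells 0.27, 0.293 and 0.209 FPKM, from 14 to 19 reads. The groups did not overlap, and the mean of EWSR1::FLI1 high cells was 4.98 times that of EWSR1::FLI1 low cells. The log2 difference was -0.85 (standard error 0.16, adjusted p = 0.00753, limma). Since JAG2 was near or below 1 FPKM the size depended on the scale, at -1.94 with a pseudocount of 0.1 and -2.32 on the recovered reads (adjusted p = 0.00792 with limma and 0.000508 with limma-voom). The call was lost when EWSR1::FLI1 high replicate 1, 2 or 3 or EWSR1::FLI1 low replicate 2 or 3 was left out, with log2 differences from -0.92 to -0.78 and an adjusted p of at most 0.0443 (limma).

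DLL1 (ENSG00000198719, chromosome 6, 170591294 to 170615653, minus strand), a Delta-like ligand, was close to the floor. It had 0.461, 0.265 and 0.195 FPKM without doxycycline (16, 7 and 5 reads) and 1.16, 0.589 and 0.523 FPKM with it (34, 16 and 27 reads), where 3 reads were worth 0.0582 to 0.117 FPKM. Its highest value came from EWSR1::FLI1 low replicate 1, the library in which genes of low expression read higher. The part of this in the result was not tested, and without that library DLL1 no longer reached the limit on mean expression. The log2 difference of 0.41 did not pass (adjusted p = 0.17, limma). It overlaps FAM120B on the opposite strand, and whether the counting used strand is not given in the sources used here.

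Within a library, JAG1 was 6.25, 8.79 and 6.32 times as high as JAG2 without doxycycline and 59.3, 329 and 207 times as high with it. The treated ratios rested on only 14, 14 and 19 reads of JAG2. JAG2 made up 12.2% ± 1.92 of the summed FPKM of the 3 ligands without doxycycline and 0.775% ± 0.675 with it (SD, n = 3). JAG1 made up 84.8% ± 2.76 and 96.4% ± 3.995. In EWSR1::FLI1 low replicate 1, where JAG1 was lowest, it made up 91.8% of the ligands, and DLL1 came before JAG2 there.

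**Figure D3:**
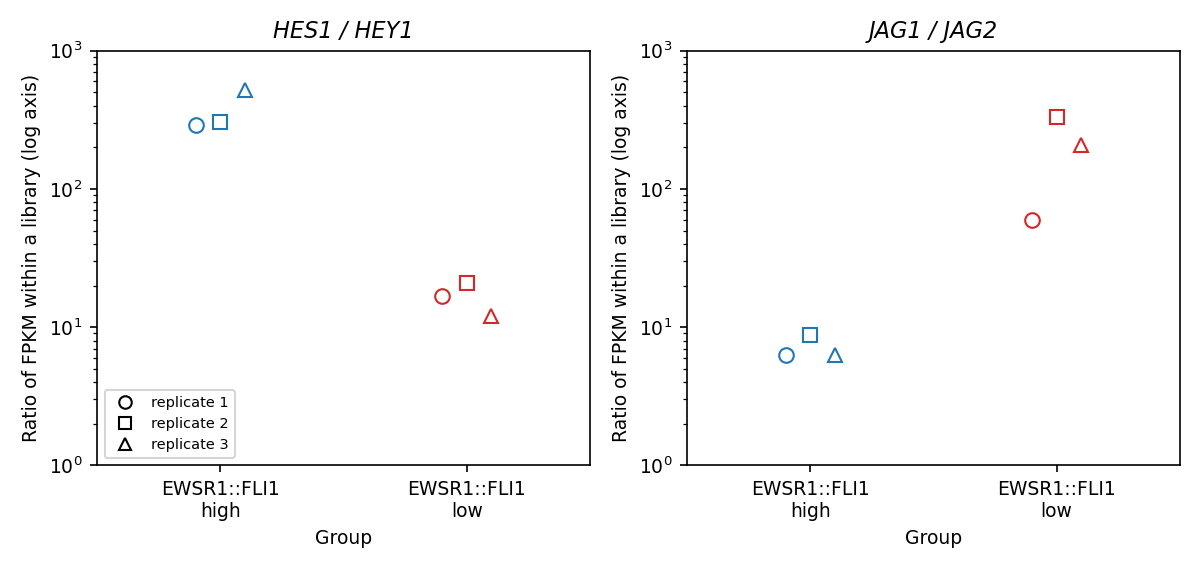
Ratio of FPKM within each library (log axis) of HES1 to HEY1 (left) and of JAG1 to JAG2 (right), for the 3 libraries of each group (circle, square and triangle: replicates 1, 2 and 3). HES1 to HEY1 lies between 292 and 520 in EWSR1::FLI1 high and between 12.0 and 20.8 in EWSR1::FLI1 low libraries, and JAG1 to JAG2 between 6.25 and 8.79 and between 59.3 and 329. The highest ratios rest on few reads: 4 to 8 of HEY1 in EWSR1::FLI1 high and 14 to 19 of JAG2 in EWSR1::FLI1 low libraries.

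HEY1 (ENSG00000164683, chromosome 8, 80674606 to 80680092, minus strand), a bHLH repressor induced by Notch, rose. The untreated libraries had 0.296, 0.292 and 0.20 FPKM, on 8, 6 and 4 reads, where 3 reads were worth 0.111 to 0.15 FPKM. The treated libraries had 3.36, 3.97 and 5.35 FPKM, on 77, 84 and 215 reads. All 3 were far above the untreated libraries, and the ratio of means was 16.1. The log2 difference was 2.03 (standard error 0.18, adjusted p = 0.000212, limma), with 231 of the 15504 tested genes showing a larger one. It was 3.56 with a pseudocount of 0.1 and 3.90 on the recovered reads, and it was called in each of the 6 fits that left out 1 library (adjusted p at most 0.00236, limma).

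HES1 (ENSG00000114315, chromosome 3, 193853937 to 193856521, plus strand), a classical Notch target, was abundant in both groups. Its promoter stretch with the TGGGAA matches is printed above. Its level was 86.2, 88.5 and 104 FPKM in untreated and 56.3, 82.5 and 64.0 FPKM in treated libraries. The groups did not overlap, the treated one being lower, but the nearest libraries, at 82.5 and 86.2 FPKM, differed little. The log2 difference of -0.47 (95% interval -0.92 to -0.02, adjusted p = 0.133, limma) did not pass. HES1 stood above 95.2% of tested genes in EWSR1::FLI1 high cells and 93.6% in EWSR1::FLI1 low cells.

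HEY2 (ENSG00000135547, chromosome 6, 126068810 to 126082415, plus strand), a close relative of HEY1 known from heart and arterial development, was low throughout. It had 0.357, 0.376 and 0.242 FPKM without doxycycline (10, 8 and 5 reads) and 1.14, 0.684 and 0.648 FPKM with it (27, 15 and 27 reads). The groups did not overlap, with the highest value again in EWSR1::FLI1 low replicate 1, without which HEY2 did not reach the limit on mean expression. The log2 difference of 0.45 (standard error 0.18, adjusted p = 0.104, limma) did not pass.

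The ratio of HES1 to HEY1 within a library was 292, 303 and 520 without doxycycline and 16.8, 20.8 and 12.0 with it. The untreated ratios rested on only 8, 6 and 4 reads of HEY1. HES1 still made up 92.9% ± 1.63 of the summed FPKM of the 3 targets with doxycycline (99.4% ± 0.189 without it; SD, n = 3). HEY1 made up 0.286% ± 0.0825 of the targets without doxycycline and 5.91% ± 1.58 with it.

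Ordered by mean FPKM, with NOTCH4 left out, EWSR1::FLI1 high cells had HES1, NOTCH2, JAG1, JAG2, NOTCH1, NOTCH3, HEY2, DLL1 and HEY1. The libraries of NOTCH2 and JAG1, of JAG2 and NOTCH1, and of the last 3 genes overlapped with those of their neighbours. In EWSR1::FLI1 low cells the order was HES1, JAG1, NOTCH2, HEY1, NOTCH3, NOTCH1, HEY2, DLL1 and JAG2, with no separation between HES1, JAG1 and NOTCH2 in turn, nor between NOTCH3, NOTCH1, HEY2 and DLL1 in turn. HEY1 went from the last place to the fourth, apart from both neighbours, and JAG2 from the fourth to the last.

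**Figure D4:**
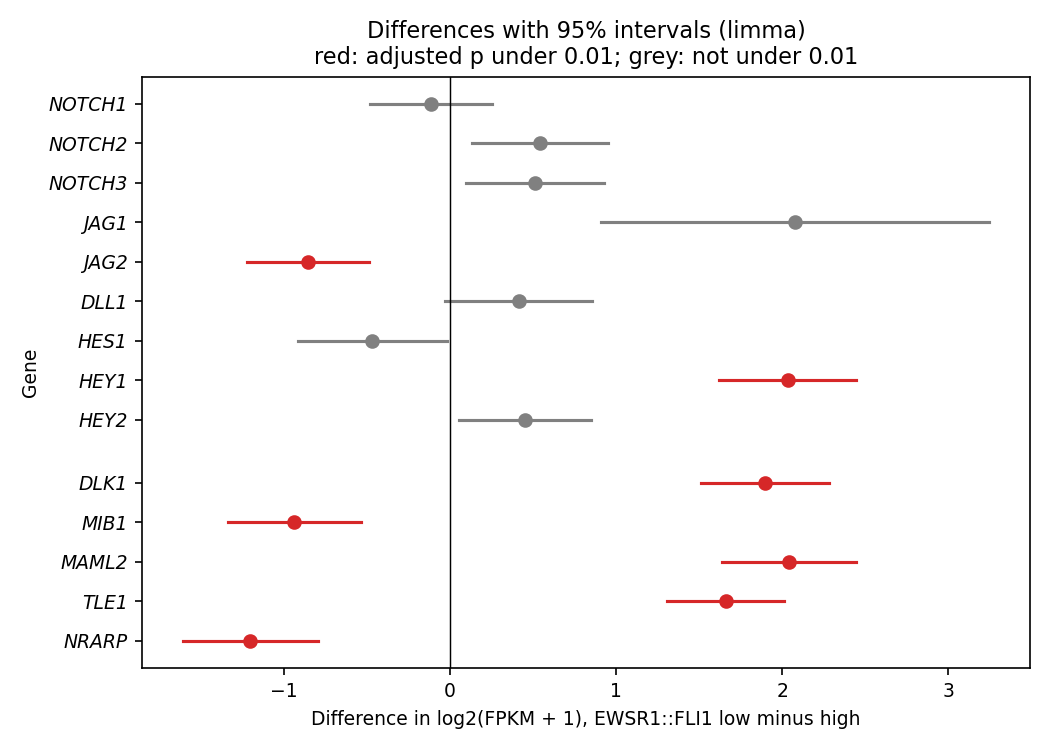
Difference in log2(FPKM + 1), EWSR1::FLI1 low minus high, with 95% intervals from limma, for the 9 genes tested (upper block) and the 5 other pathway genes called (lower block); red marks an adjusted p under 0.01. HEY1 at 2.03 and JAG1 at 2.08 have like estimates on this scale, which makes the change of HEY1, near 0 without doxycycline, appear smaller. Their ratios of means were 16.1 and 5.80. The interval of JAG1 runs from 0.91 to 3.25 and that of HEY1 from 1.62 to 2.45.

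The rest of the pathway was followed with a list of 56 further genes, 47 of which were tested. Of these 3 rose (DLK1, MAML2 and TLE1), 2 fell (NRARP and MIB1) and 42 did not pass, so 10.6% were called where 7.88% of all tested genes were. DLK1 reached the limit on mean expression through the treated group only, so the count is a description. The median log2 difference of the 47 was 0.22, beside -0.05 over all tested genes. The 9 enzymes and subunits that cut the receptor (FURIN, ADAM10, ADAM17 and the genes of gamma-secretase) had no call, with log2 differences from -0.13 to 0.82. The largest was that of NCSTN, the nicastrin subunit, whose adjusted p of 0.0149 (limma) missed the limit. The 4 tested genes of receptor glycosylation had no call either. RBPJ itself was at 24.4 ± 1.11 and 32.0 ± 6.85 FPKM (SD, n = 3; adjusted p = 0.254, limma).

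MAML2, a Mastermind coactivator, rose in the nuclear complex. Its level was 4.39, 3.90 and 3.09 FPKM in untreated and 19.2, 19.96 and 16.8 FPKM in treated libraries, with little spread beside the distance between the groups. The log2 difference was 2.04 (standard error 0.18, adjusted p = 0.000208, limma). Its relatives MAML1 and MAML3 had log2 differences of -0.22 and 0.42 and did not pass (adjusted p = 0.447 and 0.108, limma).

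TLE1, a Groucho corepressor that HES proteins recruit, was at 1.86, 1.45 and 1.62 FPKM without doxycycline and at 7.83, 6.78 and 7.42 FPKM with it. The 2 groups were clearly apart (log2 difference 1.66, adjusted p = 0.000258, limma). None of the other 9 corepressors of the list passed. MAML2 and TLE1 were called in each of the 6 fits that left out 1 library.

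DLK1, a Delta-like protein that lacks the domain by which the canonical ligands bind the receptor, had 2, 0 and 1 reads without doxycycline and 43, 46 and 60 reads with it. These reads gave 3.04, 3.53 and 2.42 FPKM in the treated libraries. The log2 difference of 1.90 (adjusted p = 0.000214, limma) depended on the pseudocount, since EWSR1::FLI1 high cells were at the floor of 3 reads over the whole group.

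NRARP, a Notch target that dampens the signal, fell. Its level was 2.73, 3.49 and 2.76 FPKM without doxycycline and 0.858, 0.93 and 0.441 FPKM with it. These values rested on 75, 73 and 56 reads without doxycycline and 20, 20 and 18 reads with it. The log2 difference was -1.20 (standard error 0.18, adjusted p = 0.00256, limma). Its size depended on the scale, at -1.92 with a pseudocount of 0.1 and -2.13 on the recovered reads. Its call was lost when EWSR1::FLI1 high replicate 1, 2 or 3, in turn, was left out, with log2 differences of -1.25, -1.11 and -1.24 and an adjusted p of 0.0101, 0.018 and 0.013 (limma). NRARP and HEY1, both direct targets of the pathway, thus moved in opposite directions, while HES4, HES6 and HEYL did not pass and HES5 had no read in any EWSR1::FLI1 high library and 5 in the EWSR1::FLI1 low libraries together.

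MIB1, the ubiquitin ligase that makes ligands active by endocytosis, was at 94.5, 78.2 and 89.2 FPKM without doxycycline and at 47.0, 40.4 and 48.0 FPKM with it. The groups were well apart (log2 difference -0.94, adjusted p = 0.00748, limma). The call was lost with quantile normalization (log2 difference -0.73, adjusted p = 0.0312, limma) and with no filter on low values (adjusted p = 0.0121, limma). It was also lost without EWSR1::FLI1 high replicate 1, 2 or 3 or EWSR1::FLI1 low replicate 2 or 3, with log2 differences from -1.01 to -0.86 and an adjusted p of at most 0.0551 (limma). MIB2 was at 1.40 and 2.74 FPKM (means) and did not pass (adjusted p = 0.0378, limma).

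Markers of other cell types were read in the same libraries. Of 8 endothelial markers, 5 stayed under 1 FPKM in every library, among them CDH5 and VWF. KDR, the VEGF receptor, rose from 0.268, 0.497 and 0.277 FPKM to 6.85, 5.20 and 8.37 FPKM (adjusted p = 0.000108, limma), the same direction as HEY1. It was the only 1 of the 4 tested endothelial markers that was called. PECAM1 had 0.278, 0.366 and 0.348 FPKM without doxycycline and 0.934, 1.56 and 0.879 FPKM with it, and did not pass (adjusted p = 0.0333, limma). TIE1, too low to be tested, also lay higher in each treated library. For CDH5, TEK, VWF and ERG the groups overlapped. KDR, PECAM1 and ERG reached the limit on mean expression through the treated group only. EMCN was already at 40.3 to 47.8 FPKM without doxycycline and was at 60.0 to 143 FPKM with it. Its difference did not pass (adjusted p = 0.0257, limma). Most of the summed level of the 8 was EMCN. The sum was 41.9 to 49.1 FPKM in EWSR1::FLI1 high and 69.2 to 154 FPKM in EWSR1::FLI1 low libraries. The part of these markers in the HEY1 result was not tested. All 5 leukocyte markers stayed under 1 FPKM in every library, and CD14 was at 0 in one of them. Of 6 epithelial markers, 4 stayed under 1 FPKM in every library and none was called. Their summed level was 51.5 to 80.0 FPKM without doxycycline and 42.7 to 112 FPKM with it. Most of that sum was KRT18, at 48.0 to 76.8 FPKM without doxycycline and 38.8 to 107 FPKM with it. In bulk RNA, fewer cells that express a gene and less of its RNA per cell cannot be told apart.

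The tested genes most like HEY1 over the 6 libraries were ABCA4, PRICKLE2 and ACTBL2 (Pearson's r of log2(FPKM + 1) of 0.999, 0.999 and 0.998), and those most like JAG2 were TEC, DUSP26 and MIR544B (r of 0.997, 0.996 and 0.996). All points share the split between the groups, and 1273 genes had an r over 0.9 with HEY1 and 1054 with JAG2, so the likeness is a description over 6 libraries only.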

How the data were processed

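Total RNA of 6 samples was sequenced after depletion of ribosomal RNA. Per the study's methods, the authors aligned the read pairs with STAR against GRCh37 and estimated abundance with Cufflinks 2.2.1. They deposited FPKM for each gene symbol in each library. The authors also deposited a DESeq2 table, of which only the mean signal (mean normalized count over the 6 libraries) was used; its fold changes, standard errors and p-values are the authors' own comparison and were not used. Scaled to that mean, 100% of the FPKM values above 0 in each library were whole multiples of 1 read (within 0.1 reads), which gave the reads per gene. Samples were grouped by their titles. Differences were tested with limma 3.58.1 in R 4.3.3 (lmFit, eBayes with trend) on log2(FPKM + 1) over the 15504 genes with a mean of at least 0.5 FPKM, with Benjamini-Hochberg adjustment and no replicate term. The fit was first run on simulated data. The simulated differences were placed only in genes of higher mean expression than HEY1 and JAG2, so that run says nothing of genes as low as these. The genes named are the 10 members, FLI1 and EWSR1, the called genes of the pathway list, and the 3 genes most like the called member with the largest rise and the one with the largest fall, with markers given as counts. FURIN, ADAM10, ADAM17, NCSTN, RBPJ, MAML1, MAML3, MIB2, HES4, HES5, HES6, HEYL, CD99, KDR, EMCN, PECAM1, TIE1, CDH5, TEK, VWF, ERG, CD14 and KRT18 were singled out after their values were seen. Members and lists were chosen with earlier results of these data known. Gene positions on GRCh37 came from a lifted GENCODE annotation. Alternatives were a pseudocount of 0.1, other filters and scalings, eBayes without trend, a replicate block, sample quality weights, limma-voom on recovered reads and leaving out each library in turn. Figures were drawn with matplotlib 3.10.9 in Python 3.11.15. Protein assays were not analysed here.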

Additional observations from a re-analysis of the deposited data

How the results depend on the processing

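HEY1 was called under all 15 alternatives (log2 difference 1.88 to 3.90), as were DLK1, MAML2 and TLE1, and FLI1 stayed between -1.82 and -1.37 with a call in each. Alternatives were run for the 9 tested members and the 5 called pathway genes, and no difference of these changed sign where it could be tested. The cause of the changes below was not tested. JAG2 was not tested with a mean of at least 1 FPKM, which left 0 members called lower. With the replicate number as a block, 2 members were called higher (HEY1 and JAG1, adjusted p = 0.00603 for JAG1, limma) and 0 lower (JAG2, adjusted p = 0.0114, limma), and 786 of all genes were called lower; no other call among these genes changed. Same-numbered samples deviated from their group means with r = 0.271, 0.0888 and 0.124 across genes. Replicate 3 of EWSR1::FLI1 high was closer to replicate 2 of EWSR1::FLI1 low (0.189). The remaining differently numbered samples had a negative r, from -0.289 to -0.00783. The numbers were not taken as pairs in the main fit, but a pairing is not excluded, and the calls of JAG2 and JAG1 depend on this choice. On recovered reads 2 members were higher, and 784 of all genes lower. With sample quality weights 3 members were higher (NOTCH2 besides HEY1 and JAG1), 14 of the pathway list were higher, and 2488 of all genes were higher and 2257 lower. The pathway list had 5 higher under either median-ratio scaling or quantile normalization, and 1 lower under the latter and without a filter. Of all genes, 700 were higher and 522 lower, against 456 and 297 with no filter, 813 lower with median-ratio scaling and 1000 lower with quantile normalization. Leaving out 1 library at a time gave 1 to 2 members higher and 0 to 1 lower, 3 to 7 of the pathway list higher and 0 to 2 lower, and 308 to 1527 of all genes higher and 157 to 807 lower. The depth limits DLL1, HEY2 and NOTCH4, also HEY1 and DLK1 without doxycycline, and JAG2 and NRARP with doxycycline. The reads of these genes are few in at least 1 group.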
